A study of Mus musculus and Canis lupus familiaris and Equus caballus with 9 samples.

Results

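REST, also called NRSF, and 8 genes whose proteins work with it as corepressors are described here by the NRSF peaks that lie at them in the mouse genome. The 9 genes are Rest, Rcor1, Rcor2, Rcor3, Kdm1a, Sin3a, Hdac1, Hdac2 and Ehmt2, taken by name out of 21887 protein-coding genes on placed mouse chromosomes. A peak was assigned to a gene if its midpoint fell in the annotated span of that gene or no more than 10 kb beyond an end. The peaks come from chromatin immunoprecipitation and sequencing (ChIP-seq), which recovers DNA crosslinked to a protein with an antibody, here a monoclonal antibody to NRSF. The mouse cells were RAW264.7, an established BALB/c macrophage line, at passages 13 to 15, with 2 immunoprecipitated replicates and 1 input DNA sample made without antibody; all were fixed with 1% formaldehyde. The series also holds horse skin fibroblasts and a dog leukaemia line, which were not used for these genes because the gene table used is for mouse. The 2 mouse replicates share 1 deposited list of 2357 peaks, each 400 bp wide, with no score or read count. The spread between replicates and the read depth are therefore unknown for every value below, and no test between conditions could be made.

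REST is a zinc-finger protein that binds a long DNA element, called RE1 or NRSE, and keeps neuronal genes silent in cells that are not neurons. It does so through corepressors held at its ends. The SIN3A scaffold at the N-terminal end brings histone deacetylases, and the CoREST scaffolds (RCOR1, RCOR2 and RCOR3) at the C-terminal end bring the deacetylases HDAC1 and HDAC2 and the demethylase KDM1A, also called LSD1. EHMT2, also called G9a, methylates lysine 9 of histone H3 and is recruited by REST as well. The measurement says where NRSF was found at the genes of this machinery, and nothing about how much of each protein the cells made.

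Of the 9 genes, 1 had a peak within reach, and that gene was Rest. The corresponding share of all protein-coding genes was 7.49% (1640 genes, exact Clopper-Pearson 95% interval 7.15 to 7.85%, counting error only). None of the 8 corepressor genes had a peak inside its span or within 10 kb. A count of 0 in 8 genes, beside a share of 7.49% in all genes, does not set these genes apart. The 8 genes had a median length of 33.6 kb, against 17.2 kb for all protein-coding genes and 36.2 kb for those with a peak. The share was not computed for genes of like length.

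Rest spans 77265494 to 77286432 on chromosome 5 (mm10), a length of 20939 bp. The lower of its 2 peaks lay at chr5:77265665-77266065. Its midpoint was inside the gene, 371 bp from the lower annotated end, at 1.77% of the way along the span. The whole peak lay inside, from 171 to 571 bp past that end. The gene table used carries no strand, but mouse Rest is known from general knowledge to be transcribed towards higher coordinates, which makes the lower end its start. In all, 163 protein-coding genes (0.745%) had a peak as close as this to one of their ends, and 158 of the 2357 mouse peaks (6.7%) lay as close to an end of such a gene.

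The upper peak lay at chr5:77287905-77288305, outside the gene. Its midpoint was 1673 bp above the upper end of Rest. The next gene on that side is Noa1, which encodes a mitochondrial GTPase, with its span 6064 bp from the midpoint of this peak. Under the 10 kb rule the upper peak therefore counted for Noa1 too, although Rest was the nearest protein-coding gene of both peaks. The next gene after it, Polr2b, which encodes a subunit of RNA polymerase II, was 22379 bp away and had no peak within 10 kb. No peak lay between the ends of Rest apart from the lower one. The microRNA gene Mir5098, annotated within the Rest span at 77272757 to 77272838, was 6.89 kb above the midpoint of the lower peak and 15.3 kb below that of the upper peak.

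**Figure D1:**
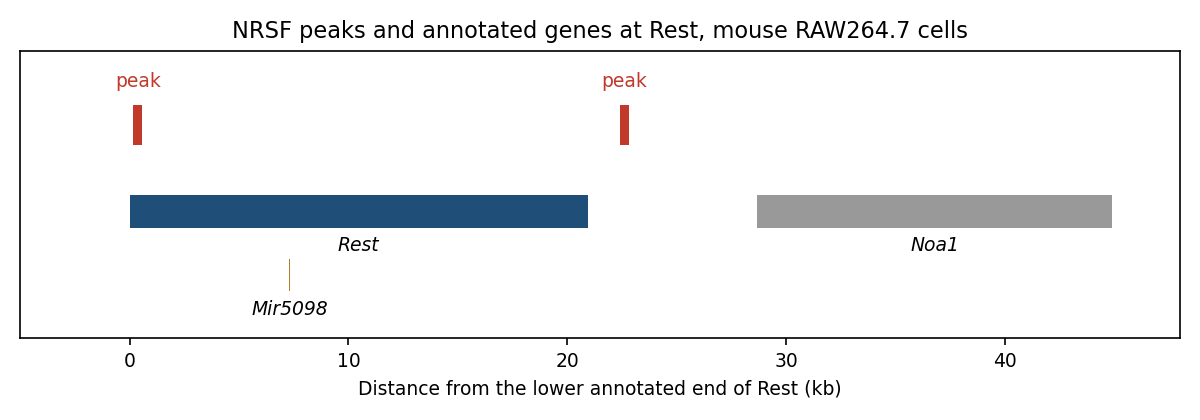
Map of the Rest locus to scale, with distance from the lower annotated end of Rest in kb on the horizontal axis. Red bars are the 2 NRSF peaks, 1 just inside the lower end and 1 beyond the upper end, and the other bars are annotated gene spans.

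The midpoints of the peaks at Rest were 22240 bp apart, with 21840 bp between their facing edges. Of the 2357 mouse peaks, 402 (17.1%) had another peak at least that close. Having 2 or more peaks within reach was seen in 221 protein-coding genes (1.01%, 95% interval 0.882 to 1.15%), or 13.5% of the genes with any peak. Of these, 167 had exactly 2 peaks, as Rest did, and 54 had 3 or more. Genes with 2 or more peaks had a median length of 85.4 kb, against 17.2 kb for all protein-coding genes, and Rest at 20.9 kb was much nearer to the value for all genes. In a count chosen after the positions had been seen, different peaks within 2 kb of each end of the gene were found at 6 protein-coding genes (0.0274%), which were Rest, Qsox2, Zfp985, Gm32584, Pou4f2 and Sez6. Pou4f2 encodes a homeodomain factor of retinal ganglion cells and Sez6 a neuronal membrane protein. No function is given here for the other genes beside Rest, and the 6 are not described as neuronal as a set. Qsox2, Zfp985 and Gm32584 had 3, 5 and 3 peaks within 10 kb, and Pou4f2 and Sez6 had 2 each. Except for Rest, the genes nearest to these peaks were not looked up, so a peak may belong to a neighbour. A peak below the lower end of Qsox2, at 26209124 on chromosome 2, overlapped the promoter window of Lhx3, at 26208200 to 26208499.

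The pair at Rest stood alone on its part of chromosome 5. The previous peak on that chromosome, at 74068130 to 74068530, was 3.2 Mb below the lower one, measured between midpoints. The next, at 79416675 to 79417075, was 2.13 Mb above the upper one. Over the 5.35 Mb between these flanking peaks, 29 protein-coding genes lay whole, and the only peaks in it were those at Rest. Chromosome 5 held 179 peaks in all, and the median gap between consecutive mouse peaks was 434 kb. Of the 2357 mouse peaks, 344 had no other within 1 Mb, a count that does not include the pair at Rest. Rest had 2 peaks within 1 Mb, its own pair, and 54.6% of protein-coding genes had 2 or fewer, so that number is common.

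The 3 CoREST genes encode the scaffolds that bridge REST and KDM1A. Rcor1, at 111039367 to 111115902 on chromosome 12, had its closest peak at chr12:111679025-111679425, 563323 bp above its upper end. That peak lay inside Trmt61a, which encodes the catalytic subunit of a tRNA methyltransferase, and 10 protein-coding genes lay whole between it and Rcor1. The second closest, at 641003 bp, was 1530 bp from Klc1, a kinesin light chain gene. Rcor2, at 7267394 to 7275225 on chromosome 19, was at 7832 bp the shortest of the 9 genes. Its closest peak, at chr19:6502595-6502995, was 764599 bp below its lower end and inside Nrxn2, which encodes a presynaptic adhesion protein, with 25 protein-coding genes between. The second closest was inside Nrxn2 too. Rcor3, at 192098546 to 192138074 on chromosome 1, had its closest peak at chr1:192457530-192457930, 319656 bp above its upper end. That peak and the next, at 334501 bp, lay inside Kcnh1, which encodes a voltage-gated potassium channel. No protein-coding gene lay whole between Rcor3 and its closest peak.

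Kdm1a encodes the demethylase that removes methyl groups from lysine 4 of histone H3, and spans 136550533 to 136602787 on chromosome 4. Its closest peak, at chr4:136907065-136907465, was 304478 bp above its upper end and 8421 bp from C1qa, a complement gene expressed by macrophages. The second, at 321938 bp, was 4694 bp from Epha8, an ephrin receptor gene. Sin3a, the scaffold gene at 57071991 to 57128368 on chromosome 9, had its closest peak at chr9:56806625-56807025, 265166 bp below its lower end. The nearest protein-coding gene to that peak was Lingo1, 10515 bp away, which encodes a membrane protein of the nervous system, and the second closest peak, at 333536 bp, lay inside Lingo1.

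The deacetylase genes differed in their surroundings. Hdac1, at 129516104 to 129542646 on chromosome 4, had its closest peak at chr4:129120855-129121255, 395049 bp below its lower end and inside Hpca, which encodes the neuronal calcium sensor hippocalcin. Hdac2, at 36974297 to 37001889 on chromosome 10, had its closest peak at chr10:39602155-39602555, 2600466 bp above its upper end. This was the largest of the 9 distances, and 94.3% of protein-coding genes had a closer peak. The nearest protein-coding gene to that peak was Traf3ip2, an adaptor of interleukin-17 signalling, 10579 bp away. Ehmt2, the methyltransferase gene at 34898463 to 34914073 on chromosome 17, came closest among the corepressors. Its closest peak, at chr17:34849595-34849995, was 48668 bp below its lower end, with 4 protein-coding genes lying whole between. That peak was inside Skiv2l, an RNA helicase gene, and 596 bp from Nelfe, which encodes a subunit of the elongation factor NELF. Of all protein-coding genes, 15.9% had a closer peak than Ehmt2.

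**Figure D2:**
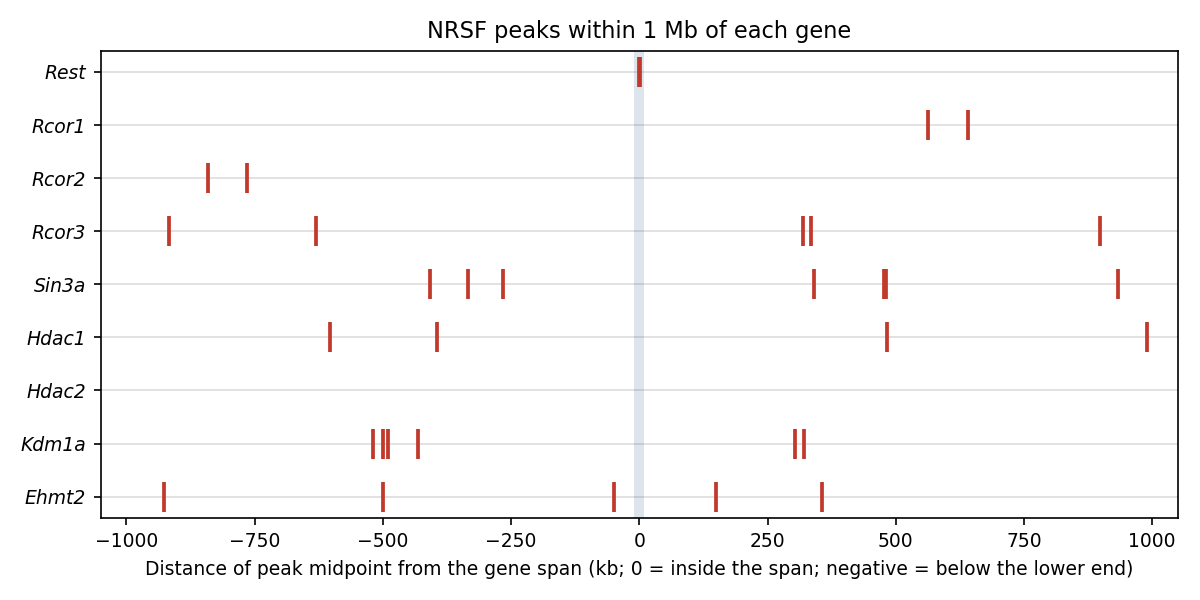
NRSF peaks within 1 Mb of each of the 9 genes, with the distance of the peak midpoint from the gene span in kb on the horizontal axis (0 is inside the span) and the 10 kb reach shaded. The Rest peaks, at 0 and 1.67 kb, are drawn as nearly 1 mark, Hdac2 has none, and Sin3a has 7.

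The distances of the 8 corepressor genes had a median of 357 kb, compared with 298 kb for all protein-coding genes, whose middle range ran from 97.1 kb at the lower quartile to 773 kb at the upper one. Only Ehmt2 and Sin3a were closer than the median gene. Rcor3 and Kdm1a lay just beyond it, Hdac1 and Rcor1 lay further out, Rcor2 was close to the upper quartile, and Hdac2 was past it. Of the 8 distances, 6 thus fell between the quartiles of all genes, with Ehmt2 below them and Hdac2 above. When the reach was widened to 50 kb, 2 of the 9 genes had a peak, Rest and Ehmt2, against 16.2% of protein-coding genes. At 500 kb, 6 of 9 did, with Rcor3, Sin3a, Hdac1 and Kdm1a added, against 63.7%. At 1 Mb, 8 of 9 did, all but Hdac2, against 80.5%. At 1 kb, Rest alone did, against 5.0%, through its lower peak.

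The number of peaks within 1 Mb was 2 for Rest, Rcor1 and Rcor2, 4 for Hdac1, 5 for Rcor3 and Ehmt2, 6 for Kdm1a, 7 for Sin3a and 0 for Hdac2. The median of these 9 numbers was 4, against 2 for all protein-coding genes (quartiles 1 and 4), of which 19.5% had no peak within 1 Mb. Rest thus had peaks at both of its ends within an otherwise empty stretch, whereas Sin3a had none within 100 kb but 6 within 500 kb.

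**Figure D3:**
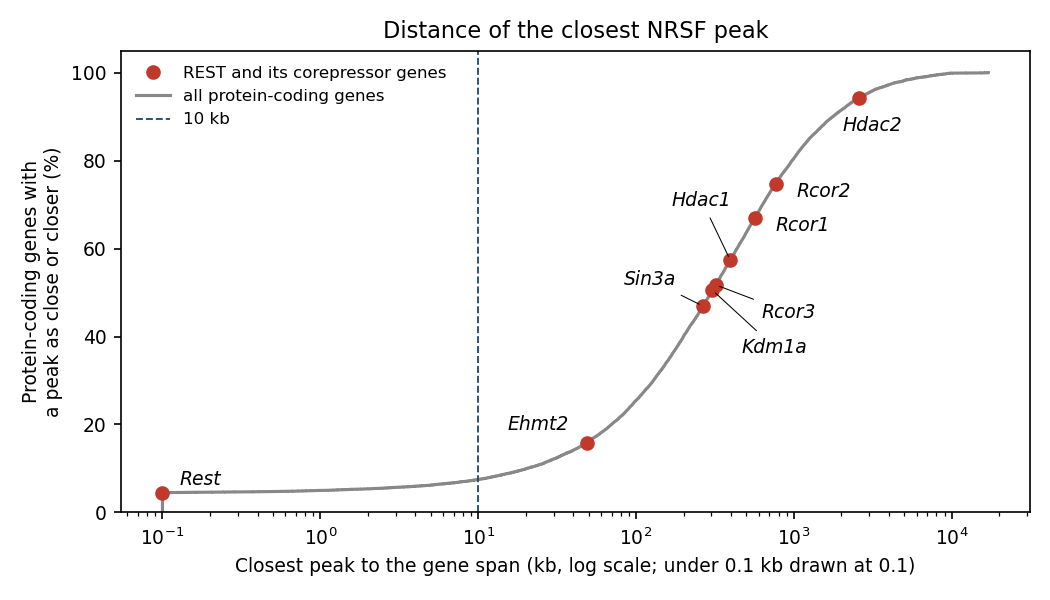
Share of protein-coding genes with a peak as close or closer (vertical axis, percent) against the distance of the closest peak from the gene span (horizontal axis, kb, log scale). Red points place Rest and the 8 corepressor genes on the curve: Rest has a peak inside its span, Ehmt2 follows at 48.7 kb, and Hdac2 lies farthest out.

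Promoter sequences from RefSeq (GRCm38.p6), running from 250 bases before to 50 bases after an annotated start, were matched by symbol for 7 of the 9 genes, in 9 windows. Rest and Hdac1 were not matched. No peak overlapped any of the 9 windows, which follows from the distances given above and is not a separate result. They were searched on both strands for the left arm of the NRSF element, TTCAGCACC, its right arm, GGACAGC, and the GC box GGGCGG. A match of one motif was counted whether or not it overlapped a match of another. None held the left arm, which occurred in 0.371% of all 32851 promoter windows. All windows belong to 27025 genes of any kind, of which 17492 are protein-coding, as all members are. Of the 9 member windows, only that of Rcor2 held the right arm, which occurred in 6.56% of all windows. A GC box was held by 8 of the 9, all but that of Kdm1a, against 35.7% of all windows. These 8 windows belong to 6 of the 7 genes. The 9 windows held 50 to 82.7% G and C, compared with a median of 52.7% over all windows. Only 1 of the 9, a Sin3a window, was below that median, and the next lowest was that of Kdm1a at 61.3%. No value over windows of protein-coding genes alone was computed, so whether these values set the 9 windows apart was not tested.

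The Rcor2 window is shown because it is the only one of the 9 with an arm of the element, although its closest peak was 764599 bp away. It runs from 7267144 to 7267443 on the plus strand of chromosome 19, and capitals mark the right arm, which starts 68 bases before the annotated start. For comparison, the window of Scamp5, a gene of a secretory vesicle membrane protein, is shown in full. It lies on the minus strand of chromosome 9 from 57468011 to 57468310, under the third closest peak to Sin3a, at 57468005 to 57468405. Capitals there mark the best match to the whole element, the left arm, 2 free bases and the right arm, and both windows are written 5′ to 3′.
Rcor2: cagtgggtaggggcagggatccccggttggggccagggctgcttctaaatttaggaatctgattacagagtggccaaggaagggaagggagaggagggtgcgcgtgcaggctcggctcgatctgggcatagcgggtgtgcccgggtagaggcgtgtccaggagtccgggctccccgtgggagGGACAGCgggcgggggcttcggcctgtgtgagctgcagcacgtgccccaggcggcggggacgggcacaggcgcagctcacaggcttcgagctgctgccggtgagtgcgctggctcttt
Scamp5: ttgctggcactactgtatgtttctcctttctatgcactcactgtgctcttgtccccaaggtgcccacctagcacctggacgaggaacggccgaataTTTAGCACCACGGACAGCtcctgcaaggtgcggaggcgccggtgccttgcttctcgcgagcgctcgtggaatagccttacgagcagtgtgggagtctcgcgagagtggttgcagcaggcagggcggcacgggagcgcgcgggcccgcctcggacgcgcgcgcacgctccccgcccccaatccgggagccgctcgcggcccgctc

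The Scamp5 window matched 15 of the 16 fixed bases of the element, and the middle of that match coincided with the peak midpoint (0 bp apart, with 1 base uncertain because the list does not say whether it counts from 0 or 1). Only 0.0396% of all windows matched as many. The Rcor2 window matched at most 10 of 16, as 72.0% of windows did. Among the other members the best match was 11 of 16, at Hdac2 and 1 of the Ehmt2 windows, a level reached by 22.5% of all windows, and 9 of 16 at Sin3a. Of the 145 windows that overlapped a mouse peak, 11.7% held the left arm, 31.7% the right arm and 53.8% the GC box. Of the 32706 that overlapped none, 0.321% held the left arm, 6.45% the right arm and 35.6% the GC box. These are descriptions of letters, and a window with no match says nothing about binding elsewhere in the gene.

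A wider list of 67 genes covered other subunits of the same complexes and other proteins that act with REST or with its corepressors. Of these, 10 had a peak within 10 kb (14.9%, exact 95% interval 7.4 to 25.7%), against 7.49% of all protein-coding genes. The median distance to the closest peak was 187 kb. Among the 15 further genes of the SIN3 and deacetylase complexes, 3 had a peak. Sap30, which encodes a subunit of the SIN3 complex, had one whose midpoint was inside the gene and 35 bp from its upper end, at chr8:57487625-57488025. Suds3, another SIN3 subunit, had one 4182 bp away, but this peak lay inside its neighbour Taok3. Hdac3, the deacetylase of the NCoR and SMRT complexes, had one 1240 bp away, inside Rell2. Among the 9 further genes listed for the CoREST complex, a list by role that is not limited to its established subunits, 1 had a peak. This was Ctbp1, a corepressor found with CoREST, with a peak 391 bp above its upper end at chr5:33275195-33275595 and no closer protein-coding gene.

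None of the 12 genes of histone and DNA methylation had a peak within 10 kb. They include Ehmt1, the partner of EHMT2, at 28.7 kb the closest of them, and the Polycomb genes Ezh2, Suz12 and Eed. None of the 4 class IIa deacetylase genes Hdac4, Hdac5, Hdac7 and Hdac9 had one either, and their distances ran from 121 to 186 kb. Of 6 chromatin remodelling genes 1 had a peak, Smarcc2, a SWI/SNF subunit, 5744 bp from a peak that lay inside Myl6b. Of 11 genes for REST stability, phosphatases and partners 1 had a peak, Usp7, a deubiquitinase known to stabilise REST, with the peak deep inside its span, 29233 bp from the closer end.

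Of 10 genes for other transcription factors that recruit KDM1A or CoREST, 4 had a peak (exact 95% interval of the share 12.2 to 73.8%), against 7.49% of all protein-coding genes. The role groups hold 4 to 15 genes each and their intervals overlap, so their shares were not ranked. The lists were chosen with earlier results of these data known. Neither this interval nor that of the 67 genes is therefore a test of an excess over all genes. Gfi1b, a repressor of blood cell development, had a peak 127 bp inside its upper end, at chr2:28621655-28622055. Scrt1 and Scrt2, zinc-finger repressors of neurons, had peaks 151 bp outside and 426 bp inside an end. Insm1, a zinc-finger factor of neuroendocrine cells, had one 1715 bp away. The other 6, Gfi1, Insm2, Snai1, Snai2, Zeb1 and Hivep1, had none within 10 kb, with Snai1 closest at 59.9 kb.

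Promoter windows were matched for 51 of the 67 cofactor genes, 81 windows in all. Of the 10 genes with a peak, Hdac3, Insm1, Scrt1 and Scrt2 were not matched. Of the 81 windows, 3 overlapped a peak (3.7%), against 145 of all 32851 windows (0.441%). All windows include those of genes that are not protein-coding, so the 2 shares are not over like genes. The part of each of the 3 windows under the peak is shown to let the letters be compared with the Scamp5 element. All 3 lie on the minus strand and are written 5′ to 3′ with no capitals, since neither arm of the element occurred in these windows. They cover 57487811 to 57488025 on chromosome 8 for Sap30, 28621933 to 28622055 on chromosome 2 for Gfi1b, and 33275195 to 33275254 on chromosome 5 for Ctbp1. The stretches are 215, 123 and 60 bases long, each from a peak 400 bp wide, and the peak midpoints at Gfi1b and Ctbp1 lie outside them. The rest of each peak could not be read, so these letters do not show whether the element lies there.
Sap30: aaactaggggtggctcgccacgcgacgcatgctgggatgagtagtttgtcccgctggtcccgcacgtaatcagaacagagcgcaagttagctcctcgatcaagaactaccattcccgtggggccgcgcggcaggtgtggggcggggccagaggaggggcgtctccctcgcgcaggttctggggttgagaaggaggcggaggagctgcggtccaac
Gfi1b: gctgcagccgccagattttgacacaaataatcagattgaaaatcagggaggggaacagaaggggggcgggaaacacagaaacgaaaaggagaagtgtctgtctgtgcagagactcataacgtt
Ctbp1: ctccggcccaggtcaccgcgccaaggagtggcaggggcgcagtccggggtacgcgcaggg
The best match to the element in the whole window was 9 of 16 bases at Sap30 and Gfi1b and 10 of 16 at Ctbp1, levels that 98.8% and 72.0% of all windows reached. Such matches were common in windows that overlapped a peak as well, but a match anywhere in the window was counted, so it need not lie under the peak. The match recorded for Ctbp1 started at base 147 of its window and that for Gfi1b at base 133, both outside the stretch shown. That for Sap30, at base 154, lay inside it. Where equal matches occur in a window, only 1 was recorded. Of the 145 windows that overlapped a peak, 80.7% matched at least 10 bases and 42.1% at least 11. Only 6.21% of them matched at least 15, as Scamp5 did, so Scamp5 is not typical of the windows that overlapped a peak.

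**Figure D4:**
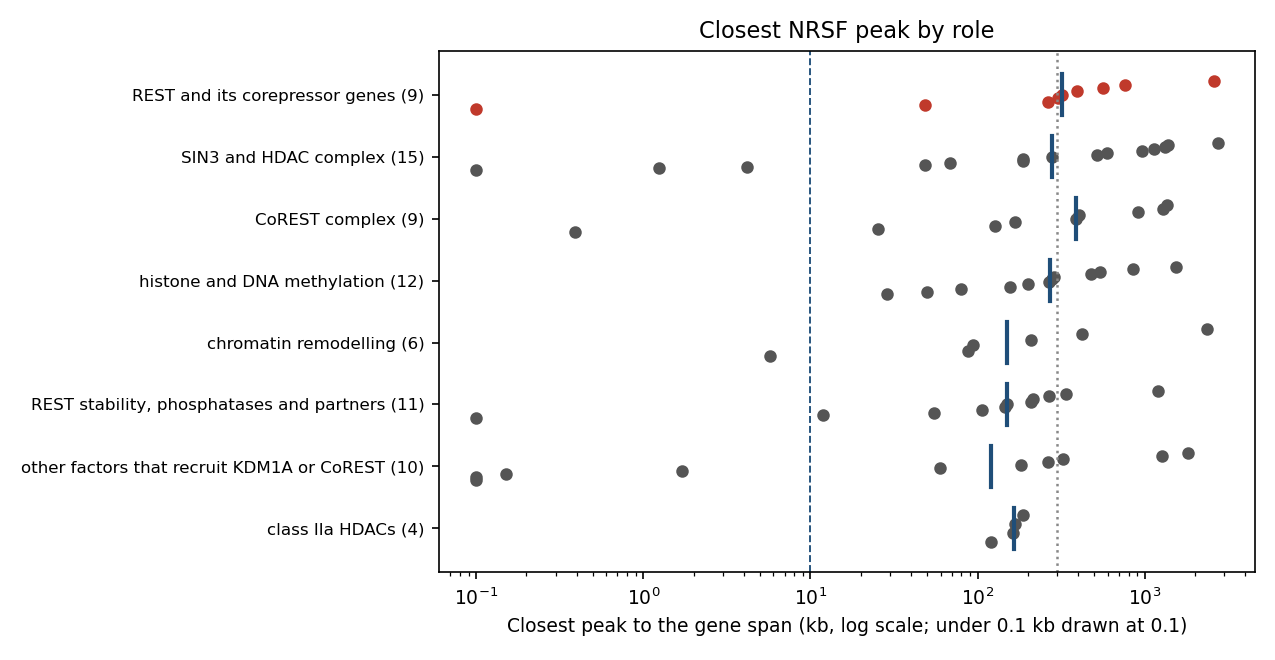
Distance of the closest NRSF peak from the gene span (kb, log scale) for the 9 genes and for the 67 other cofactor genes by role, with the number of genes in brackets. Points are genes, blue bars are medians, the dashed line is 10 kb and the dotted line is the median of all protein-coding genes (298 kb).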

How the data were processed

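The values the authors deposited are peak positions: chromosome, start and end, with no score. Per the submitters' processing notes, Bowtie 0.12.8 and MACS 1.4.2 were used, with builds including mm10. The sources used here give neither the peak threshold nor how the 2 replicates were merged. Gene spans, symbols and promoter windows came from RefSeq tables of GRCm38.p6, the assembly mm10 denotes. Members were matched on the primary symbol, since the table also lists Rcor1 as a synonym of Rcor2. The nearest peak midpoint, the number of peaks within reach and motif matches were computed with Python 3.11.15, numpy 2.4.6, pandas 2.3.3 and scipy 1.17.1, and the counting was tested on simulated data. Named genes were the 9 members, every listed cofactor with a peak within 10 kb, and the genes nearest to the closest peaks; any other gene was picked with its values in view. The members and the lists were chosen with earlier results of these data known, and the match to the whole element was added after the data were seen. Distances carry 1 base of uncertainty, and intervals cover counting error only.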

Additional observations from a re-analysis of the deposited data

How the results depend on the processing

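Of 39 alternative values, 28 stayed within 1.5 times the count or distance reported or, for the share of all genes, within its 95% interval. The count of 1 member with a peak became 2 with a reach of 50 kb and 2 with 100 kb, since Ehmt2 then came within reach. The 2 peaks at Rest became 1 with a reach of 1 kb, which leaves out the upper peak. The share of protein-coding genes with a peak was 5.0% at 1 kb, 6.2% at 5 kb, 11.0% at 25 kb, 16.2% at 50 kb and 25.4% at 100 kb, and 5.02% over all annotated genes. The 10 other cofactor genes became 6 at 1 kb and 21 at 100 kb. Counting any base of the peak, gene ends only, the nearest gene only, positions moved by 1 base, or leaving out the 87 peaks in 1 Mb bins of 10 or more changed neither the members nor the peaks counted at Rest. Distances from the annotated start, for the 7 members that had one, were at most 1.14 times those from the span. No paired analysis was possible because 1 list covers both replicates, and for the same reason no replicate could be left out. With no depth or score, a weak peak at a corepressor gene could not be told from no peak.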
